A study of Mus musculus with 46 samples.

Results

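Troponins and tropomyosins are the calcium switch of the muscle thin filament, and the 9 genes described here encode their slow and fast skeletal forms. They were chosen by name, as the genes whose Ensembl identifier maps to *Tnni1*, *Tnnt1*, *Tnnc1* or *Tpm3* (4 slow members) or to *Tnni2*, *Tnnt3*, *Tnnc2*, *Tpm1* or *Tpm2* (5 fast members). All 9 had counts in both tables of the series, 9 of 17514 genes in gastrocnemius and 9 of 16987 in spinalis, and all passed the filter on low counts. Calcium binds troponin C, which makes troponin I loosen its hold on actin, while troponin T fixes the complex to tropomyosin, the coiled coil that lies along the filament and covers the myosin sites. Most of these subunits come from separate genes in slow-twitch and fast-twitch fibres, so their messages serve as markers of fibre type. Some of the genes are not strict markers, since *Tnnc1* also encodes the troponin C of the heart, *Tpm3* is expressed outside muscle, and *Tpm1* and *Tpm2* are expressed in more than one kind of muscle.

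The study set loss and gain of androgen against the *Actn3* genotype, where *Actn3* encodes α-actinin-3 of fast fibres. Whole-muscle RNA of WT mice and of *Actn3* KO mice was sequenced in 2 experiments, and reads were counted per gene. In the first, male C57BL6 mice aged 8 to 10 weeks were orchidectomised (ORX) or sham-operated, and gastrocnemius was taken 12 weeks later. In the second, spinalis, a muscle of the back, was taken from female C57BL6 mice that carried for 6 weeks a silastic implant, empty or with 10 mg of dihydrotestosterone (DHT), placed at 4 to 5 weeks of age. All mice of the first experiment had surgery and all mice of the second had an implant. In the first experiment the KO-ORX group had 5 libraries and the other groups 6 each, and the labels describe 1 more KO-ORX sample that was not analysed here. In the second, the 2 empty-implant groups had 5 libraries each and the 2 DHT groups 6 each. Muscle, sex, age and treatment all differ between the experiments, which were therefore fitted apart, and their levels are not compared by a test. Total counts were between 26.7 and 55.4 M per gastrocnemius library and between 34.8 and 53.9 M per spinalis library. KO-sham libraries held at most 37.5 M and WT-sham libraries at least 43.4 M.

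Levels are given as log2 CPM, counts scaled to the effective library size, with a prior count of 2. Differences are log2 fold changes with their standard error (SE), and q is the Benjamini-Hochberg adjusted p over all genes of a table, from the quasi-likelihood F-test in edgeR. A gene was called at q of at most 0.01, or of at most 0.05 for the interaction, which is the difference between the treatment effects in KO and in WT. Each experiment has 4 comparisons of 2 groups and 1 interaction, and these comparisons share groups of mice. Over the 10 contrasts the 9 members gave 90 tests, of which 8 were called, in 4 contrasts. *Actn3* itself was between 12.55 and 13.34 log2 CPM in every WT library and between 5.10 and 6.38 in every KO library, so the genotype labels hold for all libraries.

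Levels between genes were compared per kilobase of exon. In WT-sham gastrocnemius, troponin T of fast fibres (*Tnnt3*) had 9170 ± 456 CPM per kb (SD, n = 6) and troponin I of fast fibres (*Tnni2*) 5460 ± 155. The tropomyosins *Tpm1* and *Tpm2* followed with 2630 ± 40.5 and 1090 ± 86.8 CPM per kb. The slow members were at 55.4 ± 18.1 CPM per kb for *Tnnc1*, 32.4 ± 8.51 for *Tnnt1*, 14.9 ± 3.73 for *Tpm3* and 12.1 ± 4.16 for *Tnni1*. *Tpm3* was above *Tnni1* per kb in each of the 6 WT-sham mice, although the ranges of the 2 genes over the mice overlap. The order *Tnnt3*, *Tnni2*, *Tpm1*, *Tpm2* was also that of the WT-empty spinalis, with 9500 ± 711, 4480 ± 356, 2520 ± 337 and 1210 ± 70.6 CPM per kb (SD, n = 5). By this measure slow troponin I made up 0.220 ± 0.0734% of the sum of slow and fast troponin I in WT-sham mice (n = 6), and slow troponin T made up 0.351 ± 0.0878% of the sum for troponin T. For troponins I and T the fast forms thus made up nearly all of the total.

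Fast troponin C (*Tnnc2*) stood apart from the other fast members, at 11.9 ± 1.34 CPM per kb in WT-sham mice (n = 6). By mean CPM it ranked 7984 of 17514 genes in gastrocnemius and 7897 of 16987 in spinalis, whereas the other fast members ranked between 5 and 27. In the GENCODE annotation of GRCm38, 592 of its 800 exon bases (74.0%) are also exon of *Ube2c*, an ubiquitin-conjugating enzyme gene on the opposite strand. The libraries were made with a stranded kit, but whether the reads were counted by strand is not stated. Without the strand, reads in the shared bases would fit both genes and may have been left out of the counts, so the level of *Tnnc2* is uncertain to that extent. The part of the overlap in that level was not tested. *Ube2c* had 9.82 ± 1.24 CPM in WT-sham mice and was called in none of the 10 contrasts by edgeR, DESeq2 or limma-voom. For troponin C the slow gene had the higher level per kb, with *Tnnc1* at 55.4 ± 18.1 in WT-sham mice (n = 6) against the value above for *Tnnc2*, and 70.2 ± 45.4 against 11.1 ± 3.69 in WT-empty mice (n = 5), within the same limit. The exons of the other 8 members share no base with another gene in that annotation. *Tpm3* has a related sequence, *Tpm3-rs7*, which is counted as a gene of its own, and how reads that fit both were counted is uncertain.

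ORX was compared with sham in each genotype to ask how loss of androgen bears on the thin filament. The slow members had positive fold changes in both genotypes and none was called, while in KO mice the fast troponins I and T fell. *Tnni1*, the slow inhibitory subunit, ranged from 5.05 to 6.20 log2 CPM (median 5.22) in WT-sham and from 5.55 to 6.18 (median 5.80) in WT-ORX mice. In KO mice it ranged from 5.20 to 6.26 (median 5.58) with sham, and was 5.46, 5.95, 6.02, 6.06 and 6.62 in the 5 KO-ORX mice. The sham and ORX ranges overlap in both genotypes. The log2 fold change was 0.40 (SE 0.19, q = 0.21) in WT and 0.42 (SE 0.20, q = 0.18) in KO. *Tnnt1* ranged from 5.81 to 6.74 (median 6.07) in WT-sham and from 6.18 to 6.90 (median 6.50) in WT-ORX mice, which overlap, with a fold change of 0.37 (SE 0.17, q = 0.21). *Tnnc1* ranged from 5.48 to 6.57 (median 5.67) and from 5.86 to 6.58 (median 6.19), which overlap as well, with a fold change of 0.36 (SE 0.18, q = 0.22). *Tpm3* had the smallest fold change of the slow members in WT, at 0.16 (SE 0.14, q = 0.56). In KO mice the fold changes of these 3 genes were between 0.23 and 0.25, with q of at least 0.37 and overlapping ranges. With 1 library left out, these values moved widely without a change of sign. In WT the fold change lay between 0.32 and 0.61 for *Tnni1*, 0.28 and 0.52 for *Tnnt1*, 0.27 and 0.56 for *Tnnc1* and 0.11 and 0.31 for *Tpm3*. In KO it lay between 0.24 and 0.58 for *Tnni1*, 0.07 and 0.41 for *Tnnt1*, 0.09 and 0.38 for *Tnnc1* and 0.10 and 0.34 for *Tpm3*. The median over the 4 slow members was 0.36 in WT and 0.24 in KO, against 0.013 and 0.014 over all genes.

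*Tnni2* ranged from 12.86 to 13.07 log2 CPM (median 12.95) in KO-sham mice and was 12.66, 12.69, 12.69, 12.70 and 12.78 in KO-ORX mice. Every KO-ORX mouse lay below every KO-sham mouse. The gene fell by 0.26 on the log2 scale (SE 0.049, q = 0.00073). *Tnnt3*, which fixes the troponin complex to tropomyosin in fast fibres, ranged from 13.63 to 13.79 (median 13.70) in KO-sham and was 13.44, 13.48, 13.49, 13.51 and 13.60 in KO-ORX mice. These groups do not overlap either, and the gene fell by 0.20 (SE 0.049, q = 0.0087). So 2 of 9 members were called in KO mice, both lower, where 5.57% of all genes were called. *Tnnc2*, *Tpm1* and *Tpm2* were between −0.10 and −0.03 in KO mice with q of at least 0.72, and each of these signs turned with library-size scaling. Without 1 library their fold changes lay between −0.18 and 0.01. Without TMM the fold changes of *Tnni2* and *Tnnt3* were −0.16 (q = 0.023) and −0.09 (q = 0.17), and no call was left. The call of *Tnnt3* was also lost in 16 of the 23 fits that left out 1 library, with q up to 0.029, and that of *Tnni2* in none of them.

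In WT mice, edgeR called 0 of 9 members for ORX, where 5.45% of all genes were called. At an unadjusted p under 0.05 the count was 5, against 22.3% of all genes, and DESeq2 and limma-voom called 0. *Tnni2* ranged from 12.95 to 13.06 (median 12.99) in WT-sham and from 12.74 to 12.99 (median 12.89) in WT-ORX mice, with a fold change of −0.11 (SE 0.046, q = 0.13). *Tnnt3* ranged from 13.70 to 13.90 (median 13.83) and from 13.77 to 14 (median 13.92), with a fold change of 0.09 (SE 0.047, q = 0.28). Both pairs of ranges overlap. *Tpm1*, the α-tropomyosin gene, had the lowest q of the members in WT, with a fold change of 0.16 (SE 0.049, q = 0.043) and overlapping ranges of 14.03 to 14.09 and 14.07 to 14.30.

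For the interaction of genotype and ORX, edgeR called 0 of 9 members, and 0.0228% of all genes. At an unadjusted p under 0.05 the count was 3, against 9.61% of all genes, and DESeq2 called 1 and limma-voom 0. The member closest to the threshold was *Tnnt3*, with an interaction of −0.28 (SE 0.068, q = 0.097), and it is the member that DESeq2 called. It was also called by edgeR without replicate 2 of WT-ORX, the lowest of the WT-ORX mice. For *Tnni2* the interaction was −0.15 (SE 0.067, q = 0.47). The responses of the 2 genes were therefore not shown to differ between genotypes by the main test.

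**Figure D1:**
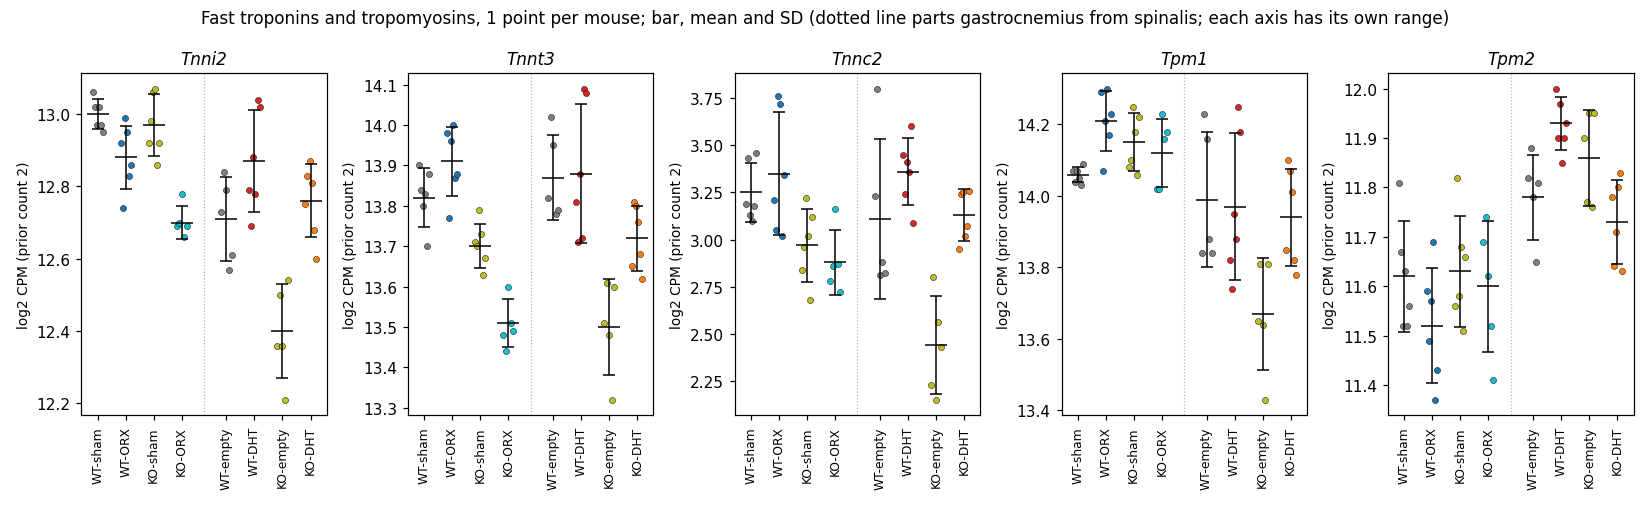
Levels of the 5 fast members in log2 CPM on the vertical axes, each with its own range, for the 8 groups along the horizontal axes, with 1 point per mouse and bars for mean and SD. *Tnni2* and *Tnnt3* of the 5 KO-ORX mice lie below those of all KO-sham mice, and *Tnnt3* and *Tnnc2* of the 5 KO-empty mice lie below those of all WT-empty mice.

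Genotype was compared within the sham and within the ORX mice of the first experiment. With sham surgery, edgeR called 0 of 9 members, where 5.30% of all genes were called. At an unadjusted p under 0.05 the count was 2, against 23.3% of all genes, and DESeq2 and limma-voom called 0. After ORX, edgeR called 1 of 9 members, *Tnnt3*, where 3.8% of all genes were called. The 5 KO-ORX values of *Tnnt3* given above, at most 13.60, lie below the whole WT-ORX range, which starts at 13.77. The gene was lower in KO by 0.41 on the log2 scale, with a fold change of −0.41 (SE 0.049, q = 3.6e-06), and this call held in each of the 23 fits without 1 library. The sham comparison gave −0.12 (SE 0.047, q = 0.099), and the interaction above is the test of that difference. *Tnnc2* and *Tnni2* had fold changes of −0.49 (SE 0.13, q = 0.017) and −0.18 (SE 0.049, q = 0.021) after ORX, outside the threshold, and DESeq2 called both. The median over the 4 slow members was 0.21 in either comparison, against −0.007 with sham and 0.009 with ORX over all genes, and the lowest q of a slow member was 0.31 with sham and 0.49 with ORX. Without 1 library the fold changes of the slow members lay between 0.03 and 0.51 with sham and between −0.09 and 0.35 with ORX.

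DHT was compared with the empty implant to ask how added androgen bears on the same genes in females. The slow members were lower with DHT in both genotypes by group mean, with a spread between mice that left 1 of them called. *Tnni1* was 4.28, 5.67, 5.79, 6.33 and 7.0 log2 CPM in the WT-empty mice and ranged from 2.70 to 5.75 (median 4.15) in WT-DHT mice. In KO mice it was 5.72, 6.28, 6.69, 6.75 and 7.16 with the empty implant and ranged from 3.36 to 5.97 (median 3.98) with DHT. In WT the ranges overlap widely, since the lowest WT-empty mouse lies near the middle of the WT-DHT mice. In KO a single KO-DHT mouse reaches into the KO-empty range. The fold change was −1.44 (SE 0.53, q = 0.060) in WT and −1.98 (SE 0.53, q = 0.017) in KO, neither of them called by edgeR, while limma-voom called *Tnni1* in KO (q = 0.0071).

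*Tnnt1*, the slow tropomyosin-binding subunit, was 4.91, 6.08, 6.36, 6.98 and 7.62 in WT-empty mice and ranged from 3.86 to 6.43 (median 4.87) in WT-DHT mice. In KO mice it was 6.28, 6.92, 7.31, 7.49 and 7.62 with the empty implant and ranged from 4.26 to 6.72 (median 4.91) with DHT. *Tnnc1*, the calcium-binding subunit of slow fibres, was 5.88, 6.49, 6.72, 7.0 and 7.25 in KO-empty mice and ranged from 3.45 to 6.34 (median 4.42) in KO-DHT mice. For both genes a single KO-DHT mouse, the same as for *Tnni1*, reaches into the KO-empty range and the others lie below it. The fold changes in KO were −1.67 (SE 0.51, q = 0.035) for *Tnnt1* and −1.74 (SE 0.53, q = 0.036) for *Tnnc1*, and those in WT were −1.21 (q = 0.10) and −1.30 (q = 0.096). None of these passed the threshold with edgeR, DESeq2 or limma-voom.

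*Tpm3*, the slow α-tropomyosin gene, was 6.54, 6.96, 7.29, 7.42 and 7.56 in KO-empty mice and ranged from 4.95 to 6.72 (median 5.44) in KO-DHT mice. In WT mice it was 5.45, 6.30, 6.51, 7.04 and 7.51 with the empty implant and ranged from 4.85 to 6.53 (median 5.47) with DHT. The KO groups overlap by a single KO-DHT mouse and the WT groups by several mice. With DHT the gene fell by 1.47 in KO mice (SE 0.36, q = 0.0089), to a level 2.77-fold lower, and in WT mice the fold change was −0.97 (SE 0.35, q = 0.061). The interaction was −0.51 (SE 0.50, q = 0.70), and between −0.82 and −0.28 without 1 library, so a difference between the genotypes was not shown. The call was lost in 13 of the 22 fits without 1 library, with q up to 0.024, and with library-size scaling (q = 0.012). *Tpm3-rs7* had a fold change of −1.30 (SE 0.34, q = 0.016) in KO mice. The median over the 4 slow members was −1.25 in WT and −1.70 in KO, against −0.006 and −0.011 over all genes. Fewer slow fibres and less of these messages per slow fibre cannot be told apart in RNA of whole muscle.

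**Figure D2:**
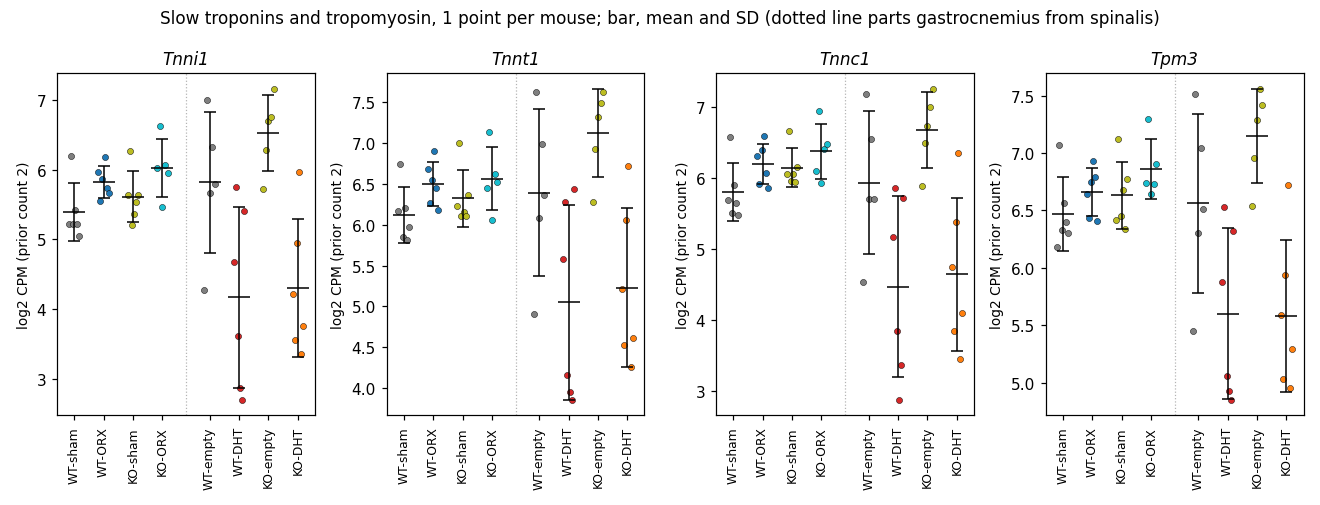
Levels of the 4 slow members in log2 CPM on the vertical axes, each with its own range, for the 8 groups along the horizontal axes, with 1 point per mouse and bars for mean and SD. In spinalis the mice of a group are spread over a wide range in all 4 genes, and the KO-DHT mice overlap the KO-empty mice by 1 mouse.

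Of the 5 fast members 2 rose with DHT in KO mice, troponins I and C. *Tnni2* was 12.21, 12.36, 12.36, 12.50 and 12.54 in KO-empty mice and ranged from 12.60 to 12.87 (median 12.78) in KO-DHT mice. *Tnnc2* was 2.15, 2.23, 2.43, 2.56 and 2.80 in KO-empty mice and ranged from 2.95 to 3.26 (median 3.16) in KO-DHT mice. For both genes every KO-DHT mouse lies above every KO-empty mouse. *Tnni2* rose by 0.36 (SE 0.079, q = 0.0044) and *Tnnc2* by 0.69 (SE 0.16, q = 0.0054), within the limit on its counts given above. *Tnnt3* was 13.32, 13.48, 13.51, 13.60 and 13.61 in KO-empty mice and ranged from 13.62 to 13.81 (median 13.72) in KO-DHT mice, groups that just fail to meet, with a fold change of 0.21 (SE 0.081, q = 0.090). *Tpm1* was 13.43, 13.64, 13.65, 13.81 and 13.81 in KO-empty mice and ranged from 13.78 to 14.10 (median 13.93) in KO-DHT mice, a small overlap, with a fold change of 0.27 (SE 0.10, q = 0.10). *Tpm2* alone among the fast members had a negative fold change, −0.13 (SE 0.060, q = 0.16), with overlapping ranges. In all, 3 of 9 members were called for DHT in KO mice, where 4.62% of all genes were called, and all 9 had an unadjusted p under 0.05, against 25.2% of all genes. DESeq2 called the same 3 members and limma-voom 4, with *Tnni1* in addition. Without 1 library the number of members called was between 0 and 4, and the calls of *Tnni2* and *Tnnc2* were lost in 7 and 6 of the 22 fits, with q up to 0.020.

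In WT mice, edgeR called 0 of 9 members for DHT, where 11.3% of all genes were called. At an unadjusted p under 0.05 the count was 5, the 4 slow members and *Tpm2*, against 29.8% of all genes, and DESeq2 and limma-voom called 0. *Tnni2* was 12.57, 12.61, 12.73, 12.79 and 12.84 in WT-empty mice and ranged from 12.69 to 13.04 (median 12.84) in WT-DHT mice, with a fold change of 0.16 (SE 0.078, q = 0.17). *Tnnc2* was 2.81, 2.82, 2.88, 3.23 and 3.8 and ranged from 3.09 to 3.60 (median 3.38), with a fold change of 0.21 (SE 0.15, q = 0.40) that lay between 0.12 and 0.42 without 1 library, with q down to 0.019. The WT groups overlap in both genes. For the interaction of genotype and DHT, edgeR called 0 of 9 members and 3.24% of all genes. At an unadjusted p under 0.05 the count was 2, against 15.1% of all genes, and DESeq2 called 1 and limma-voom 0. The interaction was 0.20 (SE 0.11, q = 0.43) for *Tnni2* and 0.48 (SE 0.22, q = 0.28) for *Tnnc2*, which without 1 library lay between 0.26 and 0.58. A difference between the responses of WT and KO mice was thus not shown for either. The member with the lowest q was *Tpm2*, the β-tropomyosin gene, at −0.27 (SE 0.085, q = 0.086), which DESeq2 called.

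Between genotypes with the empty implant, the fast troponins T and C were lower in KO. *Tnnt3* was 13.78, 13.79, 13.82, 13.95 and 14.02 in WT-empty mice, and the KO-empty values given above, at most 13.61, all lie below. The KO-empty values of *Tnnc2*, at most 2.80, lie just below the WT-empty values, which start at 2.81. *Tnnt3* fell by 0.37 in KO (SE 0.084, q = 0.0062) and *Tnnc2* fell by 0.71 (SE 0.16, q = 0.0061). So 2 of 9 members were called, where 4.25% of all genes were called. *Tnni2* and *Tpm1* were also apart between the groups, with fold changes of −0.31 (SE 0.082, q = 0.016) and −0.32 (SE 0.11, q = 0.061) that edgeR did not call. DESeq2 called 3 members, with *Tnni2* in addition, and limma-voom called 2, *Tnni2* and *Tnnt3*. The calls by edgeR were lost in 6 of the 22 fits without 1 library for *Tnnt3*, with q up to 0.023, and in 5 for *Tnnc2*, with q up to 0.022. Both were lost when only the 2 groups compared were fitted, with q of 0.021 and 0.054. The interaction with DHT was 0.20 (SE 0.11, q = 0.44) for *Tnnt3*, and that of *Tnnc2* is given above, so the genotype difference was not shown to depend on DHT. The slow members had a median of 0.54, against 0.013 over all genes, with q of at least 0.48, and without 1 library their fold changes lay between 0.28 and 0.96.

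With DHT, edgeR called 0 of 9 members between genotypes, where 11.6% of all genes were called. At an unadjusted p under 0.05 the count was 2, against 29.6% of all genes, and DESeq2 and limma-voom called 1 each, *Tpm2*. *Tpm2* ranged from 11.85 to 12.00 (median 11.92) in WT-DHT mice and from 11.63 to 11.83 (median 11.74) in KO-DHT mice. These ranges do not overlap, and the fold change was −0.19 (SE 0.058, q = 0.020). The fold changes of the 4 slow members lay between −0.03 and 0.11, with SE between 0.34 and 0.51 and q of at least 0.93. The spread between mice is much larger than these differences, and each of the 4 signs turned in some fits without 1 library.

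**Figure D3:**
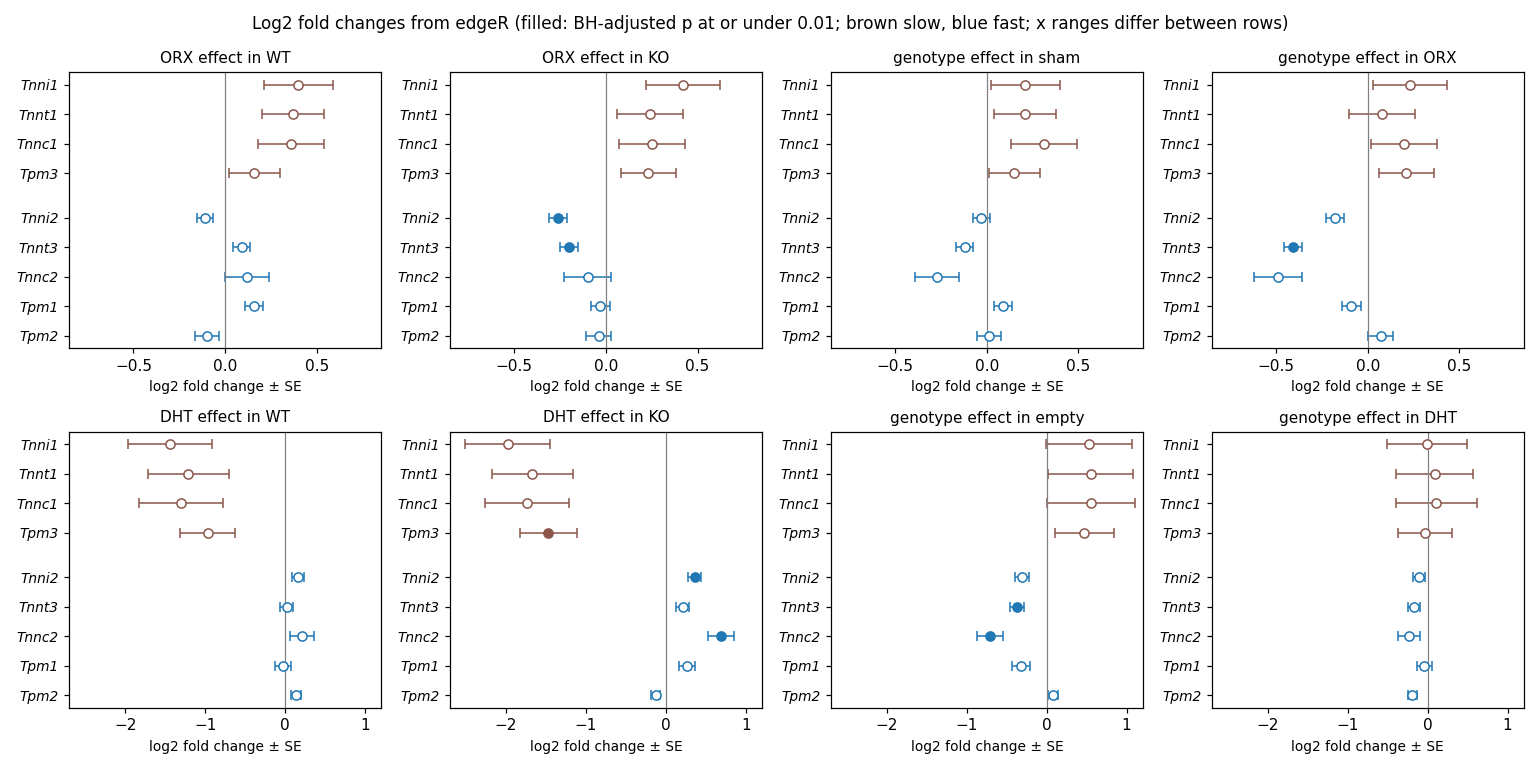
Log2 fold changes of the 9 members with bars of 1 SE in the comparisons of the 2 experiments, where filled points mark called members. The slow members lie above 0 for ORX and below 0 for DHT.

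The slow and fast members were also set against each other within each mouse, as the mean log2 CPM of the 4 slow members less that of the 5 fast members. This difference depends on gene lengths and is read between groups only, as a description without a test. In WT gastrocnemius it was −5.20 ± 0.340 (SD, n = 6) with sham and −4.88 ± 0.158 (n = 6) with ORX, and in KO −4.91 ± 0.305 (n = 6) and −4.51 ± 0.394 (n = 5). In WT spinalis it was −4.92 ± 0.895 (n = 5) with the empty implant and −6.38 ± 1.17 (n = 6) with DHT, and in KO −3.91 ± 0.508 (n = 5) and −6.12 ± 0.902 (n = 6). The values of the KO-empty mice were −4.63, −4.24, −3.72, −3.50 and −3.46, and those of the KO-DHT mice ranged from −7.01 to −4.64 (median −6.30). The KO groups thus only just fail to overlap, and the other pairs of treated and control groups overlap.

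The slow share of troponin I had the same order of groups in spinalis. Slow troponin I made up 0.739 ± 0.246% of troponin I per kb in KO-empty (n = 5) and 0.144 ± 0.113% in KO-DHT mice (n = 6), against 0.410 ± 0.232% in WT-empty (n = 5) and 0.140 ± 0.118% in WT-DHT mice (n = 6). For troponin T the shares were 0.905 ± 0.316% in KO-empty, 0.240 ± 0.170% in KO-DHT, 0.469 ± 0.274% in WT-empty and 0.206 ± 0.154% in WT-DHT mice. Even the highest single value, 1.24% of troponin T in a KO-empty mouse, left the slow form a small part of the total.

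The slow members varied more between mice of a group than the fast members did. In spinalis the pooled SD within groups was 1.02 for *Tnni1*, 0.976 for *Tnnt1*, 1.03 for *Tnnc1* and 0.670 for *Tpm3*, on the log2 scale. Among the 5604 spinalis genes with a mean log2 CPM of at least 4, these SDs ranked 11, 13, 10 and 46 from the top, and the median SD was 0.128. The fast members above that level had SDs between 0.0807 and 0.174, and *Tnnc2*, below it, 0.262. In gastrocnemius the SDs of the slow members were 0.36, 0.335, 0.339 and 0.274, ranked 89, 106, 100 and 197 of 5881 genes with a median of 0.103. The fast members there had SDs between 0.0695 and 0.118, and *Tnnc2*, again below that level, 0.225, close to that of *Tpm3*. The slow members moved together in this spread. All 4 lay on the same side of their group means in 21 of 22 spinalis libraries and in 16 of 23 gastrocnemius libraries.

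The genes outside the members whose levels over all libraries were most like the mean of the slow members were found by the root mean square difference of centred log2 CPM. Only genes with a mean log2 CPM of at least 4 in the experiment were ranked, and *Tpm3-rs7* lay below that level in spinalis and was not ranked there. In spinalis (22 libraries) they were *Myh7* at 0.198, *Myl2* at 0.364, *Myl3* at 0.543, *Atp2a2* at 0.553 and *Selenbp1* at 0.833. In gastrocnemius (23 libraries) they were *Myh7* at 0.149, *Tpm3-rs7* at 0.157, *Myl2* at 0.213, *Atp2a2* at 0.222 and *Selenbp1* at 0.244. The median over all genes above the same level was 1.2 in spinalis and 0.367 in gastrocnemius. The 4 slow members themselves lay between 0.103 and 0.313 and between 0.0725 and 0.122. Each of them is part of the mean it was compared with, so these values are small by construction. *Myh7* was called neither for DHT in KO (−1.94, SE 0.54, q = 0.022) nor in WT (−1.32, SE 0.53, q = 0.092).

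Of the other genes of the family, *Tnni3* of the heart was not analysed here, and *Tnnt2*, cardiac troponin T, and *Tpm4*, a tropomyosin of non-muscle cells, were tested. *Tnnt2* was 0.92 to 1.62 log2 CPM (median 1.2) in WT-empty and 1.71 to 2.46 (median 2.17) in WT-DHT mice, and rose by 0.89 with DHT in WT (SE 0.22, q = 0.0058). The 2 groups do not overlap, at 75 to 279 counts per library. Its fold change in KO was −0.02 (SE 0.22, q = 0.97) and the interaction −0.91 (SE 0.32, q = 0.14), so a difference between genotypes was not shown. This was the only call by edgeR among the 2 genes in the 10 contrasts, and it was lost in 8 of the 22 fits without 1 library. DESeq2 called 1 of the 2 genes for genotype with sham, 1 for DHT in WT and 1 for genotype with DHT. With limma-voom 1 was called for genotype with sham and 1 for DHT in WT. *Tnni2* and *Tnnt3* are neighbours on chromosome 7, 54.4 kb apart, and *Tnnt1* lies 1.9 kb from *Tnni3* on the same chromosome, while *Tnni1* lies 25.4 kb from *Tnnt2* on chromosome 1.

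Other genes of the thin filament and of fibre type were taken as lists, whose counts stand against 5.45% of all genes called for ORX in WT, 5.57% for ORX in KO, 11.3% for DHT in WT and 4.62% for DHT in KO. Between genotypes the shares were 5.30% with sham, 3.8% with ORX, 4.25% with the empty implant and 11.6% with DHT. Of 11 other thin filament genes, 2 were called for ORX in WT and 2 in KO, in each case 1 higher and 1 lower. These were *Actc1*, cardiac α-actin, which rose by 2.55 in WT (SE 0.19, q = 4.3e-10) and by 1.34 in KO (SE 0.20, q = 4.3e-05), and *Lmod3*, which helps to build the filament and fell by 0.43 in both (q = 3.1e-06 and 1.4e-05). For the interaction with ORX edgeR called 0 of the 11 genes, and 0.0228% of all genes, while DESeq2 called 1 of the 11 and limma-voom 0. For DHT 3 were called in WT, *Tmod4* and *Lmod3* higher and *Actc1* lower, and 1 in KO, *Kbtbd13* higher. *Actc1* fell by 2.91 with DHT in WT (SE 0.26, q = 7.3e-09), and its interaction was 2.41 (SE 0.36, q = 0.00015). The interaction was −0.54 (q = 0.016) for *Lmod3*, −0.23 (q = 0.27) for *Tmod4* and 0.19 (q = 0.62) for *Kbtbd13*. Between genotypes 3 were called with sham, 4 with ORX, 2 with the empty implant and 4 with DHT, and in each case 1 of them was higher in KO. *Acta1*, the main actin of the thin filament, had fold changes in KO of −0.37 with sham (q = 5.8e-05), −0.50 with ORX (q = 2.4e-06) and −0.51 with DHT (q = 0.00033), and its interaction with DHT was −0.15 (q = 0.68).

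Among 8 other slow-fibre genes, 1 was called in each treatment comparison, *Casq2*, the calcium store protein of slow and heart muscle. It rose with ORX by 0.43 in WT (q = 0.0090) and 0.45 in KO (q = 0.0092), and it fell with DHT by 0.70 in WT (q = 0.0030) and 1.08 in KO (q = 9.2e-05). The ORX calls of *Casq2* were lost in 13 of the 23 fits without 1 library in WT and in 15 in KO, with q up to 0.029, and limma-voom did not call it for ORX in KO. With ORX the list's median was 0.15 in WT, where 6 fold changes were positive and 2 negative. In KO it was −0.01, with 4 positive and 4 negative, so the list as a whole did not follow *Casq2* there. The list's median with DHT was −0.73 in WT and −0.98 in KO, and all 8 fold changes were negative in KO. Of 10 other fast-fibre genes, 3 were called for ORX in WT (2 higher) and 2 in KO (both lower), and 3 for DHT in WT (2 higher) and 2 in KO (both higher). The list's fold changes with DHT were 5 positive and 5 negative in either genotype, with medians of 0 in WT and −0.03 in KO. The medians with ORX were 0.07 in WT and −0.06 in KO. *Myh1*, fast myosin heavy chain, fell with ORX by 0.61 in both genotypes (q = 0.0050 and 0.0074), and *Myoz1* rose with DHT by 0.41 in WT (q = 0.00017) and 0.32 in KO (q = 0.0053). The called gene that fell with DHT in WT was *Atp2a1*, between −0.42 and −0.31 without 1 library, with the call lost in 7 of 22 fits. *Mylpf* rose by 0.44 with ORX in WT (q = 1e-04), *Myl1* rose by 0.29 with DHT in both genotypes (q = 0.0041 and 0.0088), and *Myl1* was the 1 gene of this list called between genotypes, lower in KO after ORX (−0.30, q = 0.0079). The interaction with ORX was −0.28 (q = 0.34) for *Mylpf* and −0.30 (q = 0.26) for *Myl1*, neither of them called. Without 1 library the call of *Myl1* for DHT was lost in 6 of 22 fits in WT and 16 in KO, its genotype call after ORX in 10 of 23, and that of *Myoz1* for DHT in KO in 7 of 22. The ORX calls of *Myh1* were lost in 5 of 23 fits in WT and 6 in KO.

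Of 12 transcription factors tied to fibre type, 2 were called for ORX in WT and 3 in KO, and 4 for DHT in WT and 3 in KO. *Tbx15*, a factor of fast fibres, fell with ORX by 0.27 in WT (q = 0.0011) and 0.30 in KO (q = 9e-04), and rose with DHT by 0.54 in WT (q = 4e-06) and 0.29 in KO (q = 0.0094), where the call was lost in 19 of the 22 fits without 1 library, with q up to 0.034. *Mafa*, a factor that activates fast myosin genes, rose with ORX by 0.83 in WT (q = 4e-07) and 0.50 in KO (q = 0.0013), fell by 1.00 with DHT in WT (q = 1.2e-07), and had an interaction with DHT of 0.96 (q = 0.00026). *Prox1*, a factor of slow fibres, fell by 0.79 with DHT in KO (SE 0.17, q = 0.0034), where the interaction was −0.52 (q = 0.30). *Eya1*, a coactivator in fast fibres, was lower in KO than in WT with sham (−0.31, q = 0.0015) and with ORX (−0.40, q = 0.00016). Between genotypes with DHT 3 factors were called, *Mafa* and *Maf* higher and *Tbx15* lower in KO.

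Markers of other cell types were summed in each library, since a shift in tissue makeup could move with the members. The 4 markers of skeletal muscle fibres (most abundant *Ttn*) summed to 104000 to 210000 CPM in gastrocnemius. In spinalis the sums were 181000 ± 15900 in WT-empty, 154000 ± 19100 in WT-DHT, 152000 ± 11900 in KO-empty and 136000 ± 18700 in KO-DHT mice. *Ttn*, the largest part of the sum, had a fold change with DHT of −0.36 in WT (q = 0.029) and −0.24 in KO (q = 0.19), but 2 of the 4 markers had positive fold changes in either genotype, with medians of 0.05 and 0.11. *Des* among them rose with DHT by 0.49 in WT (q = 0.0022), and was not called in KO (0.35, q = 0.043) or for the interaction (−0.14, q = 0.73). With DHT the 3 adipocyte markers (most abundant *Cfd*) were at 224 ± 126 CPM against 461 ± 137 in WT and at 324 ± 134 against 503 ± 116 in KO mice, and *Cfd* fell by 1.2 in WT (q = 0.0090). The 2 markers of developing muscle (most abundant *Myh3*) were at 9.40 ± 3.21 against 13.8 ± 4.93 CPM in WT and at 8.48 ± 1.68 against 18.8 ± 6.41 in KO mice, and *Myh8* fell by 1.38 in KO (q = 0.0031). The 3 endothelial markers (most abundant *Pecam1*) were at 161 ± 15.9 against 122 ± 16.4 CPM in WT and at 162 ± 22.9 against 140 ± 14 in KO mice, and *Pecam1* rose by 0.33 in WT (q = 0.0019). Of the 4 fibroblast markers, *Dcn* rose with DHT by 0.54 in WT (q = 0.0012) and 0.51 in KO (q = 0.0052), and *Pdgfra* fell by 0.44 in WT (q = 0.00045). The interaction was 0.40 (q = 0.74) for *Cfd*, −0.97 (q = 0.25) for *Myh8*, −0.07 (q = 0.81) for *Pecam1* and 0.19 (q = 0.48) for *Pdgfra*. The part of these shifts in the levels of the slow members was not tested.

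In gastrocnemius *Des*, a fibre marker, fell with ORX by 0.31 in WT (q = 0.00057) and 0.28 in KO (q = 0.0034). It was the 1 fibre marker of 4 called in each genotype. The fold changes of the other 3 were positive in WT and negative in KO, and the median of the 4 was 0.02 in WT and −0.13 in KO. The fibroblast sum was 2080 ± 780 CPM in KO-ORX (n = 5) against 1580 ± 187 in KO-sham mice (n = 6), with *Col1a1* at 675 ± 657 against 181 ± 125 CPM and a fold change of 1.89 (SE 0.49, q = 0.011) that was not called. Of the 4 fibroblast markers 3 had positive fold changes with ORX in KO (median 0.14). In WT all 4 were negative with ORX (median −0.13) and 1 was called, lower, where 5.45% of all genes were called. Between genotypes 2 of 4 fibre markers were called with sham, *Acta1* and *Des*, where 5.30% of all genes were called. With ORX 3 of 4 were called, *Acta1*, *Des* and *Ckm*, where 3.8% of all genes were called. All of these were lower in KO, while *Ttn*, the most abundant marker, had the 1 positive fold change in each comparison. The part of these shifts in the levels of *Tnni2* and *Tnnt3* was not tested.

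Further lists were low or varied within groups. Heart markers summed to between 0.919 and 3.8 CPM in any library, over the 2 of 4 genes analysed here (most abundant *Myh6*), and *Ryr2* among them rose by 1.06 with DHT in KO (q = 0.0053, interaction 0.94 with q = 0.15). Smooth muscle (4 markers, most abundant *Myh11*) summed to 59.1 to 143 CPM. The 3 leukocyte markers (most abundant *Ptprc*) summed to 17.9 to 39.2 CPM except in a KO-empty mouse at 80.2. Red blood cell genes (4, most abundant *Hbb-bs*) summed to 58.4 to 679 CPM, with the highest value also in KO-empty. All 4 had positive fold changes with DHT in WT (median 0.74) and negative ones in KO (median −0.53). The median of their interaction with DHT was −1.28, and 3 of 4 had an unadjusted p under 0.05 there, against 15.1% of all genes. None was called in these contrasts by edgeR, DESeq2 or limma-voom. The fibroblast sum lay between 1140 and 3290 CPM in any library.

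Between genotypes with the empty implant, edgeR called 0 of 4 fibre markers and 0 of 4 red blood cell markers. The counts at an unadjusted p under 0.05 were 2 and 4, against 23.4% of all genes, DESeq2 called 1 and 0, and limma-voom 0 and 0. The median fold changes in KO were −0.26 and 0.92, against 0.013 over all genes, with −0.36 (q = 0.029) for *Acta1* and −0.28 (q = 0.081) for *Ckm*. The red blood cell sums were 144 ± 75.9 CPM in WT-empty and 270 ± 237 in KO-empty mice (n = 5 each). The part of such shifts in the genotype differences of *Tnnt3* and *Tnnc2* was not tested.

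The promoters of the slow members are shown because these genes moved together between mice. RefSeq entries were matched for 7 of the 9 members, and the windows are the 250 bases before a listed start in GRCm38.p6. Where 2 starts were listed, the first by coordinate is given. The windows of *Tnni1* and *Tnnt1* lie inside the GENCODE model of the gene, and those of *Tnnc1* and *Tpm3* lie at its start. Matches on either strand are in capitals, and none overlapped another: CANNTG, the E-box bound by myogenic factors, AGAACA, the half-site of the androgen receptor, TATAAA, and the MEF2 core. *Tnni1* is at chr1:135799171-135799420 on the + strand, *Tnnt1* at chr7:4515976-4516225 on the − strand, *Tnnc1* at chr14:31208062-31208311 on the + strand and *Tpm3* at chr3:90072401-90072650 on the + strand.
Tnni1: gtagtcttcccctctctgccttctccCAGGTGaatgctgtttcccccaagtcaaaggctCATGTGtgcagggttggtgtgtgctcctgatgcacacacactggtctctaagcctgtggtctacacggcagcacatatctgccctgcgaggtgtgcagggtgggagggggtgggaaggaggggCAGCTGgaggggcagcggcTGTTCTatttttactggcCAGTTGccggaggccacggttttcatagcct
Tnnt1: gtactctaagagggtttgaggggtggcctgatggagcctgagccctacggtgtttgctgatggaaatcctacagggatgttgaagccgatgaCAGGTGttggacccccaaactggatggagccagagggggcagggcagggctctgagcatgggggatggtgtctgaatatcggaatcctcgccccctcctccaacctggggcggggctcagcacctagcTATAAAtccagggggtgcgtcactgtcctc
Tnnc1: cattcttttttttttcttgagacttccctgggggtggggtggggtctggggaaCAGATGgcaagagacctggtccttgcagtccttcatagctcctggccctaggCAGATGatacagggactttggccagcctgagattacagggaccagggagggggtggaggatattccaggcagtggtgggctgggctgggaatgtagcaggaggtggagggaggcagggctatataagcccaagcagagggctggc
Tpm3: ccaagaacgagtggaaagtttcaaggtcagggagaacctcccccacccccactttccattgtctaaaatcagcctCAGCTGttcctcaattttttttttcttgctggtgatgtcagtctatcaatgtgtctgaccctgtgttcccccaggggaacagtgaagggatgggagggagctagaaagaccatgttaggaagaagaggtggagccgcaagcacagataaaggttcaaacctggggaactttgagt
E-boxes numbered 4 in the *Tnni1* window, 2 in *Tnnc1* and 1 each in *Tnnt1* and *Tpm3*. Of 32851 RefSeq windows of this length 66.2% hold an E-box, so its presence does not set these genes apart. The half-site was found in *Tnni1*, where it reads TGTTCT on the strand shown, and in 16.1% of all windows. The TATAAA match was found in *Tnnt1* and in 12.4% of all windows. The MEF2 core was found in no window of a member and in 3.20% of all windows. A match is a description of the letters and not of a bound site.

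The results rest on 5 or 6 mice per group, on whole muscle and on 1 muscle and sex per androgen setting, so muscle, sex and treatment cannot be told apart between the experiments. Reads were counted per gene, and the forms spliced from *Tpm1*, *Tpm2*, *Tpm3* and *Tnnt3* were not analysed here. Protein was not analysed here. Most calls in members changed with scaling, with the groups fitted or with the loss of 1 library, and 2 held in every fit without 1 library, *Tnni2* for ORX in KO and *Tnnt3* for genotype after ORX. The counts of *Tnnc2* are uncertain through its overlap with *Ube2c*.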

How the data were processed

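Gene counts were used as deposited by the authors, whose notes name STAR 2.7.1b, SAMtools 1.9, Picard 2.20.2 and featureCounts of Subread 2.0.0 on GRCm39. Members and lists were chosen with earlier results of these data known. The 2 tables were fitted apart. The filter, at least 0.5 CPM in 2 or more libraries, removed no gene. Counts were scaled by TMM and tested in edgeR 4.0.16 (R 4.3.3) with quasi-likelihood F-tests on a model of 4 group means, and p was adjusted by Benjamini-Hochberg over all genes of the table. DESeq2 1.42.0 and limma-voom (limma 3.58.1) served as alternatives. Symbols, exon lengths and overlaps came from GENCODE M21 on GRCm38, a different build from that of the counts, and 17433 and 16920 genes matched a symbol. Promoter windows came from RefSeq.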

Additional observations from a re-analysis of the deposited data

Results flagged for a closer look

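Dixon's ratio test was run in each group on the members, on *Actn3* and on the level of the slow less the fast members. Of these 88 checks, 3 held a mouse apart from the rest of its group, and at the level used chance alone gives about 1 in 20. *Tnni1* was 6.20 log2 CPM in a WT-sham mouse, with 5.42 as the next value. *Tnnt1* was 7.0 in a KO-sham mouse, with 6.36 next, and *Tnnc1* was 6.66 in a KO-sham mouse, with 6.15 next. In each case it was replicate 2 of the group, which was kept. These mice pull the sham means of the slow members up. Replicate 2 of KO-ORX was likewise the highest of its group in all 4 slow members, at 6.62 for *Tnni1*, and pulls that mean up.

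For the interaction with DHT, edgeR called 2 of 11 other thin filament genes, 1 of 12 transcription factors and 0 in the other lists, against 3.24% of all genes. The interaction was 2.41 for *Actc1* (q = 0.00015), −0.54 for *Lmod3* (q = 0.016) and 0.96 for *Mafa* (q = 0.00026). No member had an interaction called by edgeR, and DESeq2 called 1 with ORX, *Tnnt3*, and 1 with DHT, *Tpm2*.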

How the results depend on the processing

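The number of members called was set against other tools, scalings, filters, thresholds and fits. For genotype after ORX it went from 1 to 3 with DESeq2, which added *Tnni2* and *Tnnc2*, and to 3 at q of at most 0.05. For the interaction with ORX DESeq2 called 1, *Tnnt3*, against 0. For ORX in KO the 2 calls became 0 with library-size scaling in place of TMM, 1 with only genes of at least 10 counts in every library, and 1 when the 2 groups compared were fitted alone, with *Tnni2* left in both. For ORX in WT 1 member passed at q of at most 0.05, *Tpm1*. For genotype with DHT 1 member, *Tpm2*, passed with DESeq2, with limma-voom and at q of at most 0.05, against 0. For the interaction with DHT DESeq2 called 1, *Tpm2*, against 0. For genotype with the empty implant the 2 calls became 1 with library-size scaling, 0 when the 2 groups were fitted alone and 3 with DESeq2, and with limma-voom *Tnni2* took the place of *Tnnc2*. For DHT in KO 6 members passed at q of at most 0.05 in place of 3, and 4 with limma-voom. Scaling by library size moved the median of all genes for ORX in KO from 0.014 to 0.121, and the cause was not tested.

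Some small fold changes, none of them called, turned sign. With limma-voom these were *Tnni1* in the interaction with ORX (−0.04) and for genotype with DHT (0.10). With library-size scaling these were *Tnnc2* (0.01), *Tpm1* (0.08) and *Tpm2* (0.07) for ORX in KO, *Tpm2* for genotype with sham (−0.01), *Tnnt3* for DHT in WT (−0.06), and *Tnni1* (0.06), *Tpm3* (0.04) and *Tpm1* (0.06) for genotype with DHT.

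With 1 library left out at a time, the number of members called was 1 to 2 for ORX in KO, 1 to 3 for genotype after ORX, 0 to 1 for the interaction with ORX, 0 to 4 for DHT in KO and 0 to 2 for genotype with the empty implant, and it stayed at 0 in the other contrasts. Fold changes that crossed 0 in these fits were all uncalled. *Tpm2* lay between −0.08 and 0.01 for ORX in KO and between −0.03 and 0.05 for genotype with sham, and *Tnnt1* lay between −0.09 and 0.18 for genotype after ORX. In the interaction with ORX, *Tnni1* lay between −0.19 and 0.19, *Tnnt1* between −0.30 and 0.04, *Tnnc1* between −0.31 and 0.02 and *Tpm3* between −0.08 and 0.18. For DHT in WT, *Tnnt3* lay between −0.03 and 0.05 and *Tpm1* between −0.08 and 0.04. For genotype with DHT, *Tnni1* lay between −0.54 and 0.39, *Tnnt1* between −0.35 and 0.40, *Tnnc1* between −0.42 and 0.41, *Tpm3* between −0.35 and 0.19 and *Tpm1* between −0.08 and 0.02. Without the KO-DHT mouse highest in the slow members, *Tnni1* (−2.51, q = 0.0037) and *Tnnc1* (−2.27, q = 0.0082) passed for DHT in KO.

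The replicate numbers of the first experiment were also fitted as a replicate block. The deviations of mice that share a number correlated between −0.39 and 0.389. Some mice were most like the mouse with their own number in the other group, and others were not. With no measure of what unrelated mice would give, these correlations cannot decide whether the numbers mark a shared factor. The block changed no count of members called, which were 0, 2, 0, 1 and 0. It turned the sign of *Tnnt1* for genotype after ORX (−0.005) and of *Tnni1* in the interaction with ORX (−0.09), neither of them called. No paired analysis was possible in the second experiment, because the numbers in its column names are not in the labels, and none of them is shared between groups.

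The mean level of the slow less the fast members was also taken without *Tnnc2*, an alternative chosen after its low count was seen. Every group mean was lower then, and the order of the groups within each experiment was the same. With the troponins alone the order was the same in spinalis, and in gastrocnemius WT-ORX and KO-sham, the closest groups, changed places.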
